A study of Homo sapiens with 6 samples.

Results

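Expression of 31 genes of cholesterol synthesis, uptake and export was examined in 6 neuroblastoma RNA libraries. The genes were taken by symbol from a list of 20 synthesis enzymes, 5 controllers of the sterol-sensing transcription factors, 3 carriers of cholesterol inside the cell and 3 targets of the liver X receptor (LXR). All 31 were found once among the 60651 genes of the tables. The genes were chosen by symbol with their Tet-against-EtOH fold changes in these libraries known, so these values describe these genes and the counts of members below carry no weight as independent evidence. Total RNA depleted of ribosomal RNA was sequenced from 3 cultures whose titles give EtOH (ethanol, the vehicle) and 3 whose titles give Tet (tetracycline), with a treatment of 5 days named in the labels. The titles name IMR575, a neuroblastoma line with amplified *MYCN*, and one tag speaks of a knockdown that is "Control" in EtOH and "Induction" in Tet. The protocol text instead describes SK-N-SH cells that carry the repressor plasmid pcDNA6TR and a tetracycline-inducible *MYCN* construct, grown from single clones under G418 and blasticidin. The study's own methods speak of an SK-N-AS line with inducible *MYCN* and of IMR-5/75 with an inducible shRNA against *MYCN*. The model therefore cannot be settled from these labels, and libraries are called here by their title alone.

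Cells make cholesterol from acetyl-CoA by way of mevalonate, isoprenoid diphosphates, squalene and lanosterol. When sterols in the endoplasmic reticulum run low, the escort protein SCAP carries the precursor of SREBP2 to the Golgi, where it is cleaved into a transcription factor that switches on nearly the whole synthesis pathway. When sterols are plentiful, INSIG proteins hold SCAP back, and oxysterols activate LXR, which raises the export transporters ABCA1 and ABCG1 and the ubiquitin ligase MYLIP, which marks lipoprotein receptors for degradation.

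The promoters of 5 members are shown because they hold, in different combinations, the short motifs known from sterol-regulated genes. The 2 called genes *HMGCS1* and *INSIG1* come first, then *MSMO1*, the sterol factor gene *SREBF2* and *STARD4*. Each is the 250 bases before the RefSeq start on GRCh38.p14, written 5′ to 3′ on the strand of the gene, with motif matches on either strand in capitals. The windows are chr5:43313413-43313662 (minus strand) for *HMGCS1*, chr7:155297628-155297877 (plus) for *INSIG1*, chr4:165327419-165327668 (plus) for *MSMO1*, chr22:41832855-41833104 (plus) for *SREBF2* and chr5:111512536-111512785 (minus) for *STARD4*.
HMGCS1 promoter: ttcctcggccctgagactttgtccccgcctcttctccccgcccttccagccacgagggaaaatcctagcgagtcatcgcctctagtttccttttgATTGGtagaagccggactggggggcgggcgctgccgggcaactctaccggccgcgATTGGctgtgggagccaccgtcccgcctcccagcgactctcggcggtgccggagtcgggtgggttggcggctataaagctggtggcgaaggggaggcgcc
INSIG1 promoter: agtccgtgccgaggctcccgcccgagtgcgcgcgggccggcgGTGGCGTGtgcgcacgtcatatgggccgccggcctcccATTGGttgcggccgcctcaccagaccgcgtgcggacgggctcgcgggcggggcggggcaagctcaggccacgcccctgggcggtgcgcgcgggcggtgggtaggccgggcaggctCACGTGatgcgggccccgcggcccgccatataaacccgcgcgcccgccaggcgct
MSMO1 promoter: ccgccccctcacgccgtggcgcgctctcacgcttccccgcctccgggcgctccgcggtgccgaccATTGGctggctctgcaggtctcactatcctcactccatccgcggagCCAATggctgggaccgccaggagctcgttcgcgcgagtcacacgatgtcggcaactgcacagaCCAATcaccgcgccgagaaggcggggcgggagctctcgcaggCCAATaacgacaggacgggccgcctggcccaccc
SREBF2 promoter: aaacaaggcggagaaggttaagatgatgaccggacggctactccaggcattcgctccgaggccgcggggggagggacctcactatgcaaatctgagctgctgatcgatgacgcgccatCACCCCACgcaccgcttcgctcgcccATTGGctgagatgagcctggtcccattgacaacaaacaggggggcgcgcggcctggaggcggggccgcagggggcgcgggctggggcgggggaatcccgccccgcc
STARD4 promoter: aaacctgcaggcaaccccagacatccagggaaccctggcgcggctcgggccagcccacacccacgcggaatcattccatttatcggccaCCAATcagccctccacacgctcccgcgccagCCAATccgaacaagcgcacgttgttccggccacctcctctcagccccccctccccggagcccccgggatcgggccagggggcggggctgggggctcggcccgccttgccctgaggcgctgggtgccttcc
Capitals mark the CCAAT box bound by the factor NF-Y (CCAAT, or ATTGG when read from the other strand), a core of the sterol regulatory element (CACNCCAC or its reverse complement) and the E-box CACGTG bound by MYC family proteins.

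*HMGCS1* held CCAAT boxes 155 and 100 bases before its start, and *MSMO1* held them at 185, 139, 76 and 34 bases. The *INSIG1* window combined a sterol element core at 208 bases with a CCAAT box at 170 and an E-box at 55. In *SREBF2* the core lay at 132 bases and the CCAAT box at 106. *STARD4* carried CCAAT boxes at 161 and 130 bases and no other motif searched.

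Among 27 members with an entry in the RefSeq table, 19 (70.4%) held a CCAAT box, against 37.0% of the 27305 genes with an entry. The share was 82.4% among the synthesis enzymes (14 of 17), and 9 of these 17 (52.9%) held more than 1 box, against 11.5% of all genes; where boxes on both strands overlap, each counts. The sterol element core stood in 5 of 27 members (18.5%; *ABCA1*, *IDI1*, *INSIG1*, *SC5D* and *SREBF2*), against 5.89% of all genes. The E-box stood in 4 of 27 (14.8%; *ABCA1*, *INSIG1*, *SC5D* and *SCAP*), against 7.73%. The LXR element was searched only as an exact direct repeat of half-sites with 4 bases between them. It was in no member window and in 5 of all windows (0.0183%). A motif this rare could hardly be met in 27 members, so its absence does not set them apart from other genes. Imperfect repeats were not searched, so whether *ABCA1* or another member holds an LXR element was not tested. All these motif counts are matches of letters in a short window and not mapped binding sites.

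The libraries held 27933212 to 40497909 counts, so that 3 counts corresponded to 0.0754 to 0.108 CPM (counts adjusted for library size, here by TMM). *MYCN*, the gene the system was built to change, was at 158, 256 and 156 CPM in EtOH replicates 1 to 3 and 196, 199.9 and 145 CPM in Tet (log2 fold change -0.07, SE 0.23, adjusted p = 0.956 by edgeR), so neither label was checked by it. Of 8 noradrenergic neuroblastoma markers 7 exceeded 3 counts, with *TH* at no more than 3 counts, and their sum was 555 to 655 CPM in EtOH and 655 to 778 CPM in Tet. Of the 6 of these that were tested, 4 (*PHOX2A*, *GATA3*, *ISL1* and *CHGA*) had all Tet libraries above all EtOH libraries, which was so for 9.2% of all genes tested. The median log2 fold change of the 6 was 0.77, with the highest at 2.18 for *CHGA* and the lowest at -0.14 for *HAND2*. By edgeR 0 of the 6 passed an adjusted p under 0.05, against 0.147% of all genes called higher. At an unadjusted p under 0.05, 4 were higher (5.83% of all genes), and DESeq2 called 3 higher (1.18%). Of 8 mesenchymal or fibroblast markers 7 were present (302 to 529 CPM in EtOH, 277 to 387 CPM in Tet), with *COL1A2* at 0. Their median log2 fold change was -0.39. Without overlap, 2 were lower and 1 was higher in Tet, against 8.28% and 9.2% of all genes tested. Schwann cell, white blood cell and endothelial markers summed to at most 4.77, 1.03 and 0.111 CPM, with *S100B*, *CD3E* and *VWF* among those at 0. The mitochondrial share of counts was 10.01%, 4.12% and 8.49% in EtOH replicates 1 to 3 and 6.82%, 5.86% and 9.14% in Tet. The part of any of these in the results was not tested. In bulk RNA, fewer cells of a type and less RNA per cell cannot be told apart.

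**Figure D1:**
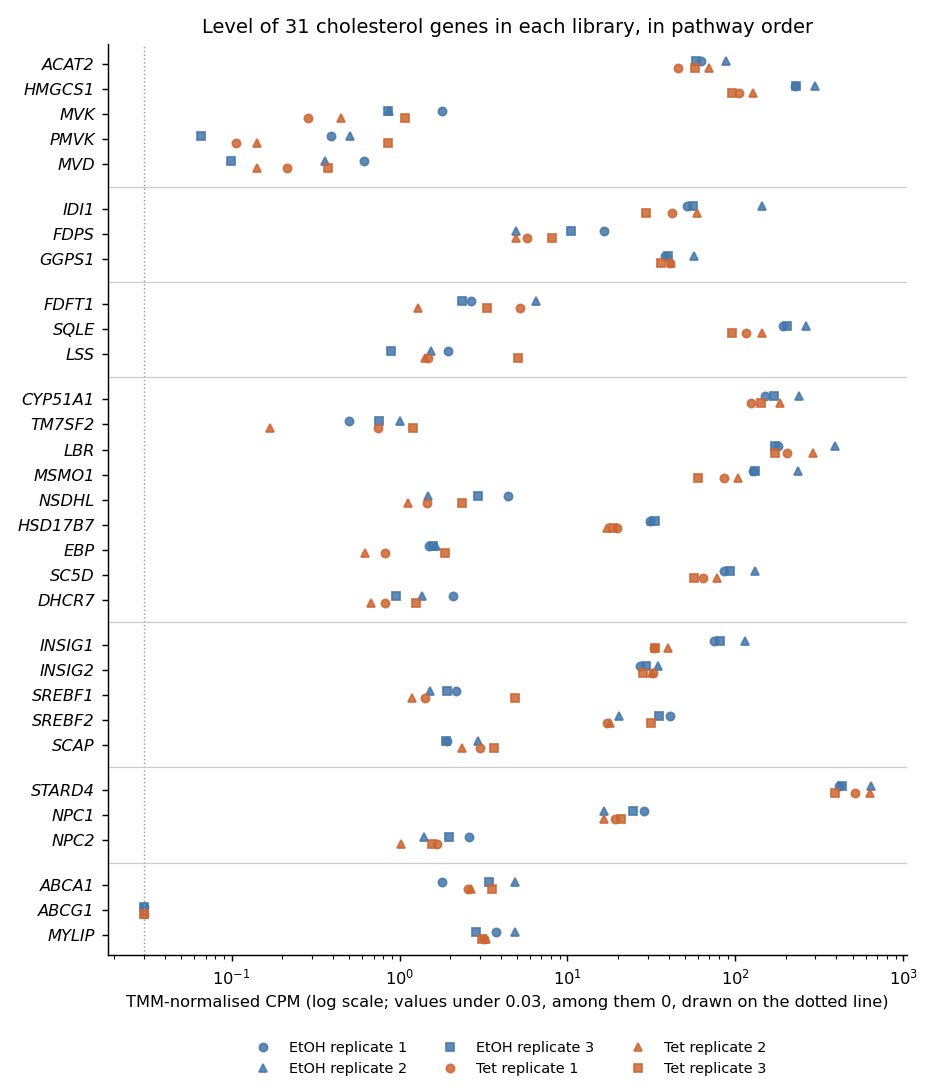
Level of each of the 31 genes in each library, as TMM-normalised CPM on a log axis, in pathway order from synthesis to export (blue EtOH, orange Tet; symbol shape gives the replicate; grey lines part the steps). *HMGCS1*, *SQLE*, *MSMO1*, *HSD17B7*, *SC5D* and *INSIG1* show every Tet library to the left of every EtOH library, *STARD4* is the highest gene, and *ABCG1* lies on the dotted line in all 6.

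Sterol synthesis genes tended to lower levels in Tet, with *HMGCS1* and the feedback regulator *INSIG1* past the threshold and the tested LXR targets overlapping between the labels. Of the 30 members tested, 24 had a log2 fold change under 0 (median -0.41, against -0.0061 over all 22443 genes tested). By edgeR at an adjusted p under 0.05, 2 members fell, against 0.0891% of all genes tested falling, and 0 rose (0.147% of all genes). At an unadjusted p under 0.05 the counts were 7 lower and 0 higher, against 4.94% and 5.83% of all genes. DESeq2 called 4 members lower (0.846% of all genes) and 0 higher (1.18%), and edgeR with RLE scaling called 0 lower (0.0579%; 6 at an unadjusted p under 0.05) and without the filter on low counts 4 lower (0.289%). In 6 members all Tet libraries lay below all EtOH libraries, which was so for 8.28% of all genes, and in 0 members did they lie above (9.2%).

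**Figure D2:**
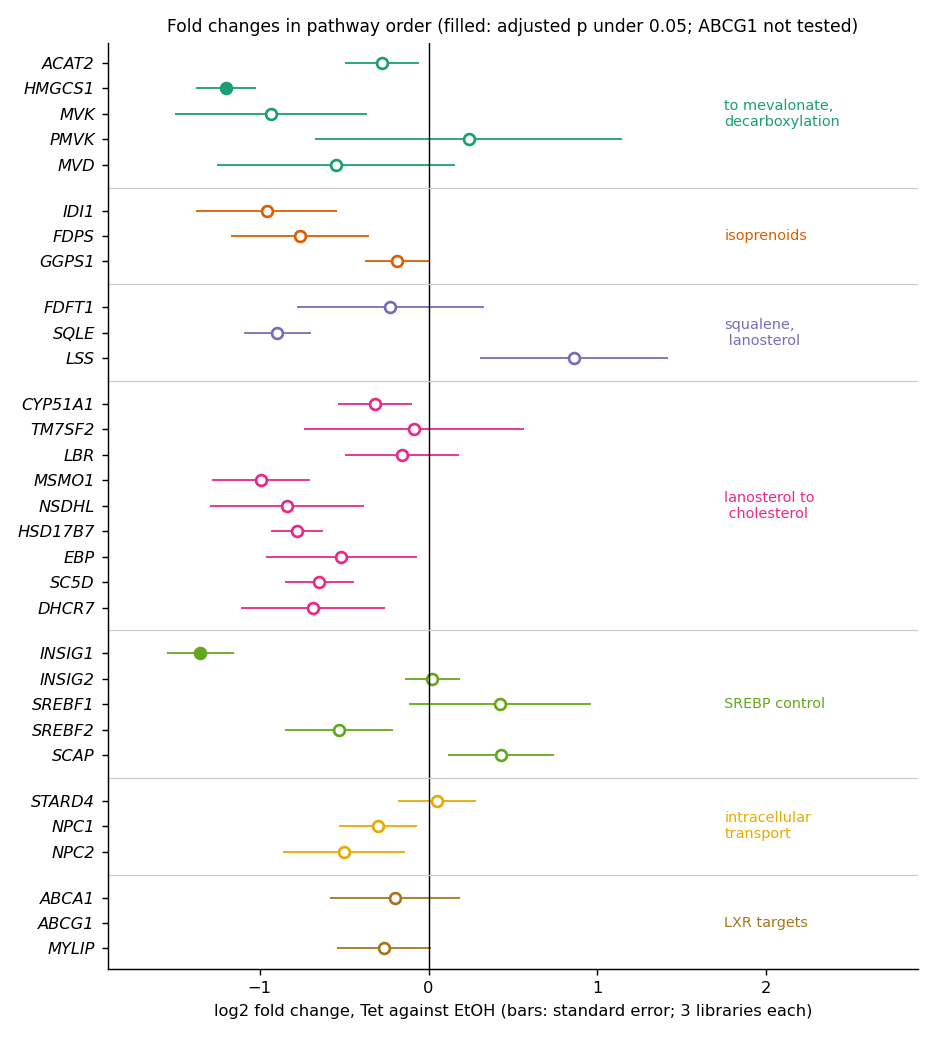
Log2 fold change of each tested member, Tet against EtOH, with its standard error, in pathway order and coloured by step (3 libraries per label; filled points have an edgeR adjusted p under 0.05). Points for *HMGCS1* at -1.20 and *INSIG1* at -1.35 are filled, and points of the lanosterol-to-cholesterol step all lie left of 0.

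The opening steps of the pathway turn acetyl-CoA into mevalonate and on to an activated isoprene unit. *HMGCS1* (ENSG00000112972.15; GRCh38 chr5:43287470-43313512) makes HMG-CoA, the precursor of mevalonate. It was at 228, 298 and 229 CPM in EtOH replicates 1 to 3 and at 105, 127 and 96.2 CPM in Tet. All Tet libraries lay below all EtOH libraries, and the mean dropped from 252 ± 40.3 to 109.7 ± 16.05 CPM (SD, n = 3 each). *HMGCS1* fell by 1.20 on the log2 scale (SE 0.18, adjusted p = 0.0464 by edgeR), a 2.30-fold reduction. An antisense gene, ENSG00000261604, covers 37.7% of the *HMGCS1* exon bases and went the same way, from 83.4 ± 16.2 to 32.9 ± 4.33 CPM (SD, n = 3 each; log2 fold change -1.34, adjusted p = 0.0413 by edgeR). Per the file headers strand was not used in the counting, so reads of the pair cannot be told apart. The call on *HMGCS1* was lost without EtOH replicate 1 (adjusted p = 0.153 by edgeR), EtOH replicate 3 (0.257), Tet replicate 1 (0.345), Tet replicate 2 (0.157) or Tet replicate 3 (0.217), and with RLE scaling (0.0644), with the log2 fold change between -1.32 and -1.05 in all leave-one-out fits. The antisense gene lost its call without the same libraries (adjusted p = 0.133, 0.229, 0.339, 0.157 and 0.211 by edgeR) and with RLE scaling (0.0505). Over all genes these leave-one-out fits called only 2, 1, 0, 1 and 0 genes in turn, and 40 were called with RLE scaling. A lost call in them is thus not particular to these genes.

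The other enzymes of these steps differed less or were barely detected. *ACAT2*, the cytosolic thiolase that starts the pathway, ranged from 58.1 to 88.2 CPM in EtOH and from 45.3 to 69.3 CPM in Tet (log2 fold change -0.28, SE 0.22, adjusted p = 0.731 by edgeR), and *TCP1* and other genes cover 22.2% of its exons. The mevalonate kinase *MVK*, the phosphomevalonate kinase *PMVK* and the decarboxylase *MVD* stayed at or under 1.78 CPM in every library. Their log2 fold changes were -0.93 (SE 0.57), 0.24 (SE 0.91) and -0.55 (SE 0.70), so that a difference was not detectable at this depth. Per length the measured gap inside the pathway was wide: *HMGCS1* had a mean level of 75.5 TPM over the 6 libraries (counts per exon length, scaled to a common total), against 0.369 TPM for *MVK*, 0.914 for *PMVK* and 0.173 for *MVD*. Exon GC content was 40.3% in *HMGCS1* and 58.6%, 59.0% and 63.0% in the others. Over all genes tested the median was 10.8 TPM at 40% to 45% GC and 0.965 TPM at 55% or more. The part of GC content in this gap was not tested.

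Isoprenoid diphosphates feed sterols as well as protein prenylation, ubiquinone and dolichol. *IDI1*, which isomerises isopentenyl diphosphate, was at 51.2, 145 and 56.3 CPM in EtOH replicates 1 to 3 and at 41.7, 58.9 and 29.5 CPM in Tet. EtOH replicate 2 stood well above the other EtOH libraries, and Tet replicate 2 lay above both other EtOH libraries. Its log2 fold change was -0.96 (SE 0.42, adjusted p = 0.462 by edgeR), and -0.30 without EtOH replicate 2. *FDPS*, which makes farnesyl diphosphate, ranged from 4.97 to 16.4 CPM in EtOH and from 4.96 to 8.14 CPM in Tet (log2 fold change -0.76, SE 0.41, adjusted p = 0.569 by edgeR). *GGPS1*, which turns farnesyl into geranylgeranyl diphosphate and so leads away from sterols, ranged from 38.1 to 56.5 CPM in EtOH and from 36.0 to 41.2 CPM in Tet (log2 fold change -0.19, SE 0.19, adjusted p = 0.809 by edgeR). In *GGPS1* 41.0% of exon bases are shared with *ARID4B* and another gene.

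Squalene is made by *FDFT1*, oxidised by *SQLE* and folded into lanosterol by *LSS*. *SQLE*, a rate-limiting enzyme of the pathway, was at 193, 264 and 204 CPM in EtOH replicates 1 to 3 and at 116, 143 and 96.2 CPM in Tet. The groups did not overlap, yet the gene missed the threshold (log2 fold change -0.89, SE 0.20, adjusted p = 0.135 by edgeR). *FDFT1* was at 2.34 to 6.52 CPM in EtOH and 1.30 to 5.24 CPM in Tet, and *LSS* at 0.891 to 1.95 and 1.41 to 5.05 CPM. The highest *LSS* value was Tet replicate 3, and its log2 fold change of 0.86 (SE 0.56, adjusted p = 0.656 by edgeR) became -0.015 without that library.

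In the last stretch lanosterol loses its extra methyl groups and its double bonds are moved and reduced to give cholesterol. All 9 genes of this stretch had a log2 fold change under 0, with a median of -0.65. At an adjusted p under 0.05 edgeR called 0 of them, against 0.0891% of all genes tested called lower. At an unadjusted p under 0.05 it gave 3 lower (4.94% of all genes), and DESeq2 called 1 lower (0.846%). *MSMO1* and *HSD17B7*, which act with *NSDHL* to strip methyl groups, and *SC5D*, a desaturase, were the 3 without overlap between groups. Such a separation with Tet lower held for 8.28% of all genes tested.

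*MSMO1* was at 128, 237 and 131 CPM in EtOH replicates 1 to 3 and at 85.3, 104 and 59.6 CPM in Tet (log2 fold change -0.99, SE 0.29, adjusted p = 0.252 by edgeR). Here EtOH replicate 2 set much of the difference, and the log2 fold change was -0.63 without it. *HSD17B7* was at 31.1, 31.4 and 33.1 CPM in EtOH and at 19.8, 17.1 and 18.7 CPM in Tet (log2 fold change -0.78, SE 0.15, adjusted p = 0.0966 by edgeR). The SD within a label was 1.09 CPM in EtOH and 1.34 CPM in Tet. *HSD17B7* has near-identical copies in the genome whose reads the counting of unique alignments leaves out. *SC5D* was at 85.8, 132 and 93.4 CPM in EtOH and at 64.0, 77.5 and 57.1 CPM in Tet (log2 fold change -0.65, SE 0.21, adjusted p = 0.288 by edgeR).

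*CYP51A1*, the lanosterol demethylase, was at 151, 239.7 and 169 CPM in EtOH replicates 1 to 3 and at 125, 184 and 141 CPM in Tet, with overlapping groups (log2 fold change -0.32, SE 0.22, adjusted p = 0.689 by edgeR). Other genes share 84.5% of its exon bases, so its level is uncertain. The sterol reductase *LBR*, which also anchors chromatin at the nuclear envelope, was at 179, 392 and 173 CPM in EtOH and at 204, 291 and 173 CPM in Tet (log2 fold change -0.16, SE 0.34, adjusted p = 0.929 by edgeR). *LBR* was thus as variable within a label as between labels, and its log2 fold change was 0.34 without EtOH replicate 2. *TM7SF2*, which encodes a separate reductase for the same step, did not exceed 1.21 CPM in any library. *NSDHL*, the isomerase *EBP* and *DHCR7*, the enzyme of the final reduction, ranged between 0.620 and 4.43 CPM, with log2 fold changes of -0.84 (SE 0.46), -0.52 (SE 0.45) and -0.68 (SE 0.43) and overlapping groups. *EBP* shares 36.4% of its exon bases with ENSG00000286268 (log2 fold change -1.15, adjusted p = 0.345 by edgeR).

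Among the 5 controllers, edgeR and DESeq2, run on the same 6 libraries, each called *INSIG1* alone. They called 0.0891% and 0.846% of all genes lower in Tet. *INSIG1* (ENSG00000186480.13; GRCh38 chr7:155297776-155310235), itself a target of SREBP2, encodes the protein that holds the SCAP complex in the endoplasmic reticulum. It was at 74.3, 114 and 81.5 CPM in EtOH replicates 1 to 3 and at 32.7, 39.7 and 33.3 CPM in Tet. The highest Tet library was below the lowest EtOH library, and the mean went from 89.9 ± 21.2 to 35.2 ± 3.84 CPM (SD, n = 3 each). *INSIG1* fell by 1.35 on the log2 scale (SE 0.20, adjusted p = 0.0451 by edgeR), a 2.55-fold reduction, the lowest fold change among the members. None of its exon bases is shared with another gene. The call was lost without EtOH replicate 1 (adjusted p = 0.133 by edgeR), EtOH replicate 3 (0.229), Tet replicate 1 (0.339), Tet replicate 2 (0.189) or Tet replicate 3 (0.217), and with RLE scaling (0.0582), while the log2 fold change stayed between -1.49 and -1.14. As given for *HMGCS1*, these leave-one-out fits called 0 to 2 genes of the whole table.

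*INSIG2*, which has the same task but is not driven by SREBP2, was at 27.1, 34.4 and 29.5 CPM in EtOH replicates 1 to 3 and at 32.2, 32.0 and 28.1 CPM in Tet (log2 fold change 0.02, SE 0.16, adjusted p = 0.982 by edgeR). Whether the 2 INSIG genes differed in their response was not tested. *SREBF2*, the gene of SREBP2, was at 40.9, 20.2 and 34.9 CPM in EtOH and at 17.1, 17.9 and 31.5 CPM in Tet (log2 fold change -0.53, SE 0.32, adjusted p = 0.621 by edgeR). Tet replicate 3 lay inside the EtOH range. *SREBF1*, the gene of SREBP1, ranged from 1.51 to 2.17 CPM in EtOH and from 1.18 to 4.88 CPM in Tet, and *SCAP* from 1.88 to 2.92 and from 2.37 to 3.67 CPM. Their log2 fold changes were 0.42 (SE 0.54) and 0.43 (SE 0.31). For *SREBF1* the sign came from Tet replicate 3, without which the log2 fold change was -0.52.

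**Figure D3:**
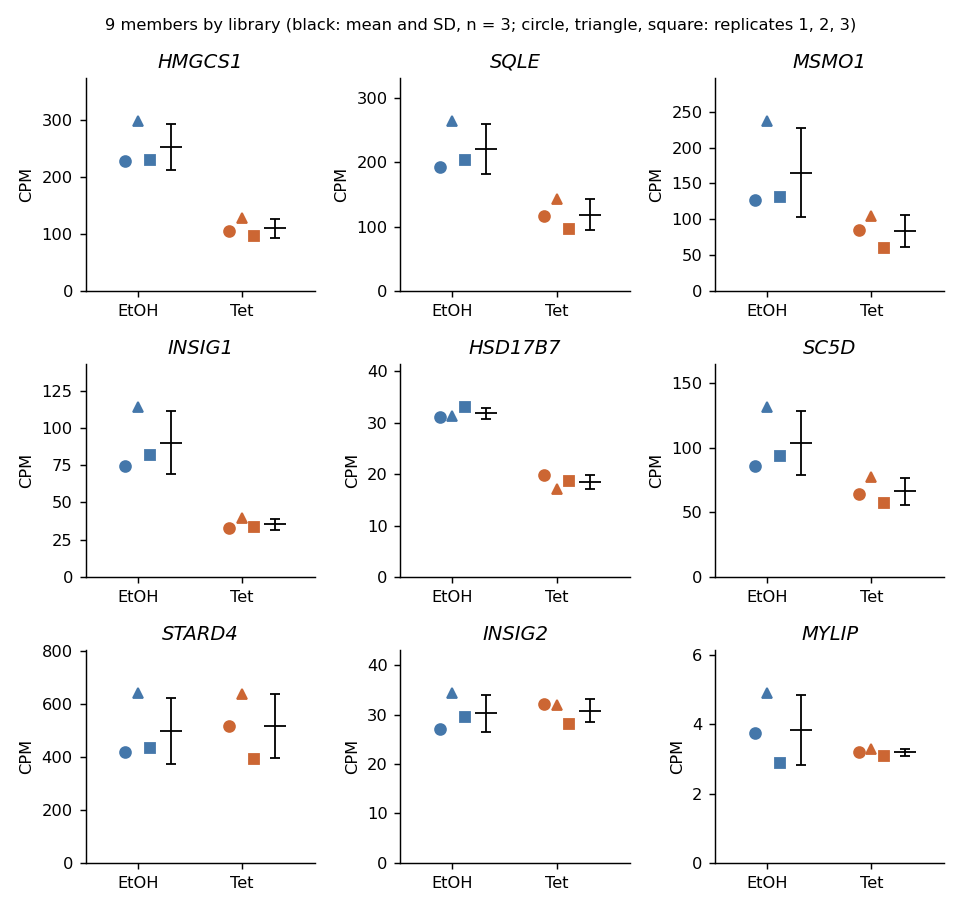
CPM of 9 members in each library on linear axes that start at 0, with the mean and SD of each label in black (n = 3; circle, triangle and square are replicates 1, 2 and 3). The 6 genes of the upper rows show no overlap between labels, whereas *STARD4*, *INSIG2* and *MYLIP* overlap; replicate 2 is the highest of both labels for *HMGCS1*, *SQLE*, *MSMO1*, *INSIG1* and *SC5D*.

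Carriers inside the cell were close between the labels. *STARD4*, which moves cholesterol between membranes through the cytosol, was the highest member per length, with a mean of 245 TPM. It was at 417, 641 and 434 CPM in EtOH replicates 1 to 3 and at 517, 635 and 393 CPM in Tet (log2 fold change 0.05, SE 0.23, adjusted p = 0.973 by edgeR). Both labels spanned nearly the same range. *STARD4* is a known sterol-responsive gene and held CCAAT boxes as shown above, a match found in 37.0% of all genes with an entry. Whether these bear on its level here was not tested. *NPC1*, the lysosomal membrane protein that lets cholesterol out after uptake, ranged from 16.4 to 28.5 CPM in EtOH and from 16.5 to 20.8 CPM in Tet (log2 fold change -0.30, SE 0.23). Its soluble partner *NPC2* ranged from 1.40 to 2.59 and from 1.01 to 1.66 CPM (log2 fold change -0.50, SE 0.36).

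The LXR targets were all low. *ABCA1*, which loads cholesterol onto lipoprotein particles, was at 1.78, 4.90 and 3.43 CPM in EtOH replicates 1 to 3 and at 2.55, 2.68 and 3.54 CPM in Tet (log2 fold change -0.20, SE 0.38, adjusted p = 0.917 by edgeR). *MYLIP* was at 3.73, 4.90 and 2.87 CPM in EtOH and at 3.19, 3.30 and 3.09 CPM in Tet (log2 fold change -0.26, SE 0.28, adjusted p = 0.818 by edgeR). All Tet values of *MYLIP* lay within the EtOH range. *ABCG1* had 0 counts in all 6 libraries, which allows up to 3 counts per library or 0.108 CPM, and was not tested.

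The contrast between synthesis and LXR targets was then followed library by library. For 18 SREBP2-driven enzymes (the 20 without *GGPS1* and *LBR*), each gene was centred on its mean log2 CPM over the 6 libraries and the median was taken. This score was 0.26, 0.52 and 0.17 in EtOH replicates 1 to 3 and -0.41, -0.56 and 0.09 in Tet, with means of 0.32 ± 0.18 and -0.30 ± 0.34 (SD, n = 3 each). Tet replicate 3 came close to EtOH replicate 3. The median gives each enzyme the same weight, and Tet replicate 3 was the lowest library for 7 of the 20 enzymes and the highest for 4, as given below. The mean of *ABCA1* and *MYLIP*, centred alike, was -0.31, 0.60 and -0.04 in EtOH and -0.17, -0.11 and 0.04 in Tet, a spread within EtOH that covered all Tet values.

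The LXR score minus the enzyme score was -0.58, 0.07 and -0.21 in EtOH replicates 1 to 3 and 0.24, 0.45 and -0.05 in Tet. The mean was 0.45 log2 units higher in Tet, from -0.24 ± 0.33 to 0.21 ± 0.25 (SD, n = 3 each), and the labels overlapped. Across leave-one-out fits this difference ran from 0.20 without EtOH replicate 1 to 0.68 without EtOH replicate 2. As fitted log2 fold changes, the median was -0.66 over the 18 enzymes and -0.23 over the 2 LXR targets tested. The LXR median was 0.066 without EtOH replicate 2.

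**Figure D4:**
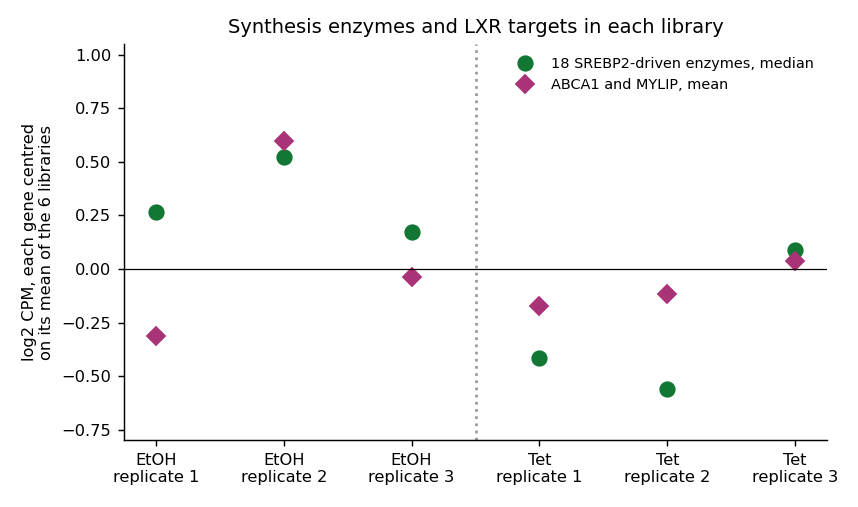
Per library, the median of 18 SREBP2-driven synthesis enzymes (circles) and the mean of *ABCA1* and *MYLIP* (diamonds), as log2 CPM with each gene centred on its mean of the 6 libraries. The circles are above 0 in the 3 EtOH libraries and below 0 in Tet replicates 1 and 2, with Tet replicate 3 at 0.09, and the diamonds of both labels overlap.

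Tet replicate 3 was lowest for some enzymes and highest for others. Of the 20 enzymes, 7 had their lowest value in this library (*HMGCS1*, *IDI1*, *GGPS1*, *SQLE*, *LBR*, *MSMO1* and *SC5D*), and all of these averaged at least 10 CPM. The 4 enzymes with their highest value in it (*PMVK*, *LSS*, *TM7SF2* and *EBP*) all averaged under 10 CPM. EtOH replicate 2 had the highest value of 10 enzymes and Tet replicate 2 the lowest of 7. Split at that level after the values were seen, the 10 enzymes of at least 10 CPM all had a log2 fold change under 0 (median -0.71). Of them, 5 were lower in Tet with no overlap between labels, which was so for 8.28% of all genes tested. The 10 enzymes under 10 CPM had a median of -0.53, with 8 under 0 and 0 without overlap.

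Levels within the pathway went with base composition. The 12 tested members with an exon GC content of at least 50% (50.6% to 63.0%) had a median of 0.852 TPM, and 11 of them averaged under 10 CPM. The 18 with less GC had a median of 36.0 TPM, and 4 of these averaged under 10 CPM. Over all genes tested the median level was 18.1 TPM at a GC content under 40% and 0.965 TPM at 55% or more. Spread between libraries of 1 label went with it too: EtOH replicate 2 exceeded EtOH replicate 1 in 16 of the 18 members with less GC (median log2 difference 0.59) and in 4 of the 12 with more (median -0.55). Over all genes the corresponding medians ran from 0.43 at a GC content under 40% to -0.54 at 55% or more. The standard error of the log2 fold change had a median of 0.50 in the GC-rich members and 0.22 in the others. With counts corrected for GC content, an alternative added after seeing the data, the called members were again *HMGCS1* (adjusted p = 0.0243 by edgeR) and *INSIG1* (0.0435).

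**Figure D5:**
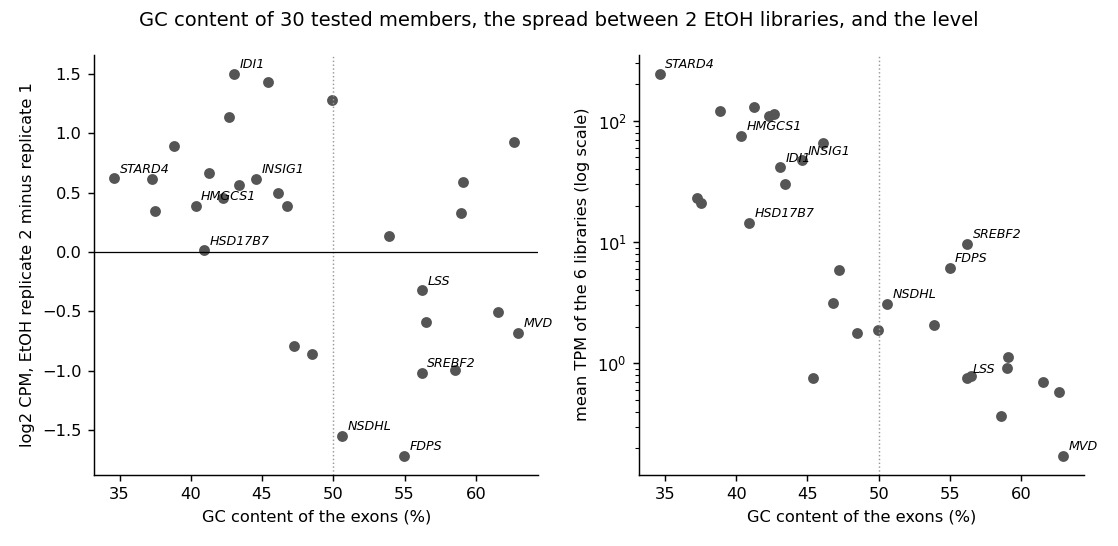
Exon GC content of the 30 tested members against the log2 difference between 2 libraries of the same label (left) and against the mean TPM on a log axis (right); 1 point per gene, some named, dotted line at 50%. Members under 50% GC mostly lie above 0 on the left and reach 245 TPM on the right, whereas the GC-rich members stay at or under 9.69 TPM.

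Genes around the pathway, taken from lists drawn up with earlier results known, were mostly not called. By edgeR 0 genes passed in either direction among 7 accessory genes of sterol synthesis, 11 genes of SREBP processing and turnover, 14 of uptake, esterification and traffic, 11 LXR and oxysterol genes and 9 of the non-sterol isoprenoid branch. At an unadjusted p under 0.05 these lists gave in turn 1, 1, 3, 0 and 0 genes lower and 0, 1, 1, 3 and 0 higher, against 4.94% of all genes lower and 5.83% higher. DESeq2 called 1 gene in all, higher, in the LXR and oxysterol list, against 1.18% of all genes called higher. Median log2 fold changes were -0.13, 0.15, 0.06, 0.28 and -0.20.

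The lowest and highest log2 fold changes in these lists were -0.57 for *TMEM97* (a sterol-responsive membrane protein; adjusted p = 0.252 by edgeR) and 0.79 for the electron donor *CYB5R3*, -0.73 for *ERLIN1* (a membrane protein of sterol-regulated degradation) and 0.49 for the ubiquitin ligase *RNF145*, -0.67 for the lipoprotein receptor *LRP8* and 0.98 for its relative *LRP1*. In the last lists they were -0.48 for *LPCAT3*, which remodels phospholipids, and 1.20 for *CYP7B1*, and -0.26 for the dolichol synthesis gene *NUS1* and 0.06 for the farnesyltransferase subunit *FNTA*. *CYP7B1*, which clears oxysterols by hydroxylation, was at 5.93, 11.6 and 7.13 CPM in EtOH replicates 1 to 3 and at 17.5, 23.7 and 15.2 CPM in Tet, with no overlap between labels (SE 0.29, adjusted p = 0.177 by edgeR). Among the LXR and oxysterol genes *CYP27A1* and *CH25H* were too low to be tested.

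Of 9 fatty acid genes driven by SREBP1 that could be tested, 1 fell and 0 rose by edgeR, against 0.0891% and 0.147% of all genes. At an unadjusted p under 0.05, 3 were lower and 0 higher, against 4.94% and 5.83% of all genes. DESeq2 called 2 lower and 0 higher, against 0.846% and 1.18%. *SCD*, the stearoyl-CoA desaturase, was at 512, 547 and 495 CPM in EtOH replicates 1 to 3 and at 265, 269 and 259 CPM in Tet. The mean dropped from 518 ± 26.5 to 265 ± 4.96 CPM (SD, n = 3 each), and *SCD* fell by 0.97 on the log2 scale (SE 0.13, adjusted p = 0.0389 by edgeR). That call was lost without EtOH replicate 1 (adjusted p = 0.170 by edgeR), EtOH replicate 3 (0.266), Tet replicate 1 (0.339), Tet replicate 2 (0.192) or Tet replicate 3 (0.207), and with RLE scaling (0.0505). As given for *HMGCS1*, these leave-one-out fits called 0 to 2 genes of the whole table. *FASN*, the fatty acid synthase, had the highest log2 fold change of the list at 0.29. The median over the list was -0.23.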

How the data were processed

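Total RNA was sequenced from 6 cultures, grouped by title into EtOH and Tet. The authors deposited estimated counts per gene, 1 table per library and unscaled. Per the file headers they trimmed reads with trimgalore, aligned with STAR and counted unique alignments with featureCounts 1.6.4 on exons, dividing read pairs among overlapping genes and ignoring strand. The submitters' processing notes list STAR 2.7.1a, featureCounts 1.5.1 and GRCh38, and the study's methods state strand-aware counting with GENCODE annotation; values were read as the headers describe. Of the genes in a library, 12.3% to 14.7% had a value that was not whole. The 92 spike-in sequences had 0 counts and were left out. Symbols came from GENCODE tables (60437 of 60651 identifiers).

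The design had assumed whole counts, so estimated counts were rounded. Genes passing filterByExpr (22443) were scaled by TMM and compared by the two-sided quasi-likelihood F test of edgeR 4.0.16 (R 4.3.3), without a replicate block. p-values were adjusted over the whole table by the Benjamini-Hochberg method and called at 0.05, and SE is the size of the log2 fold change over the square root of F. TPM used merged exon lengths from the tables, and centred log2 CPM a prior count of 2. Exon GC content came from the GRCh38 sequence, and promoters from RefSeq (27 of 31 members matched). Alternatives were RLE scaling, no filter, DESeq2 1.42.0, unrounded counts, a replicate block, each library left out and, added after seeing the data, a loess correction for GC (span 0.3). The fit was tested on simulated counts with the same dispersion for every gene and no shift with GC content. That differs from these libraries, so the simulation does not show how the fit performs on them. Replicates of 1 label differed by more than sampling noise (chi-square per degree of freedom 11.5 to 146.7) and were kept apart. The study describes its cell experiments as independent replicates, which the labels do not state for these libraries, so p-values measure the spread between these libraries. Limits from a count of 0 cover counting error only. All members and lists were chosen with earlier results of these data known, and all members are named, with the highest and lowest gene of each other list and markers at 0, of which some are not reported here.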

Additional observations from a re-analysis of the deposited data

How the results depend on the processing

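Limits first: 2 of 30 members passed narrowly, 3 libraries a label leave few degrees of freedom, and members under 10 CPM had wide errors. Members called numbered 2 in the reported fit and with unrounded counts or GC correction, 0 with RLE scaling (6 at an unadjusted p under 0.05; edgeR adjusted p = 0.0644 for *HMGCS1* and 0.0582 for *INSIG1*), 4 without the filter (0.289% of all genes falling), 4 by DESeq2 (0.846%) and 7 with the replicate block. Leaving out 1 library gave 0 to 3, with 0 in all fits other than the one without EtOH replicate 2. Over all genes, 53 were called, 40 with RLE scaling, 302 without the filter, 485 by DESeq2, 675 with the replicate block, 121 with GC correction and 0 to 692 with 1 library left out. The 692 came without EtOH replicate 2, and every other leave-one-out fit called 0 to 2. Deviations from the group means correlated between same-numbered libraries at 0.0603, 0.510 and 0.219, all above 0. These values do not settle whether the numbers mark a pairing, which was not tested. The reported fit had no block, so any spread shared by same-numbered libraries stayed in its error. For *IDI1* the SE was 0.42 in the reported fit and 0.18 with the block. The block fit called *HMGCS1*, *IDI1*, *SQLE*, *MSMO1*, *HSD17B7*, *SC5D* and *INSIG1* (with 254 of 22443 genes falling).

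The median of the 18 enzymes stayed between -0.79 and -0.47 with 1 library left out and was -0.60 with all 20 enzymes and -0.68 with those sharing under 5% of exon bases. Of 360 settings of single members, 314 kept direction and side of the threshold, 12 lost a call, 10 gained one and 24 changed sign. *PMVK* was -0.12 with the replicate block and -0.20 with GC correction, where *INSIG2* was -0.0060, *SREBF1* -0.091 and *STARD4* -0.0026. With 1 library left out, log2 fold changes ran from -1.33 to 0.69 for *PMVK*, -1.03 to 0.079 for *MVD*, -0.31 to 0.021 for *GGPS1*, -0.75 to 0.39 for *FDFT1*, -0.015 to 1.16 for *LSS*, -0.74 to 0.38 for *TM7SF2*, -0.40 to 0.34 for *LBR*, -0.075 to 0.13 for *INSIG2*, -0.52 to 0.76 for *SREBF1*, -0.13 to 0.28 for *STARD4* and -0.53 to 0.18 for *ABCA1*. For these shifts between settings the cause was not tested.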
